A study of Mus musculus with 17 samples.

Results

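The genes described here are 3 ligands of the bone morphogenetic protein (BMP) pathway, Bmp2, Bmp4 and Bmp7, the inhibitory SMADs Smad6 and Smad7, and the ID genes Id1, Id2, Id3 and Id4. They were followed through the H3K27ac HiChIP loops that have an anchor within 5 kb of one of their start sites in the mouse genome build mm9. HiChIP counts read pairs that join 2 distant stretches of chromatin (anchors), here after pulling down chromatin with H3K27ac, a histone acetylation found at promoters and enhancers in use. Of 1211657 loops, 749 had an anchor at one of the 9 genes. All libraries came from mouse R1 embryonic stem (ES) cells that were formed into embryoid bodies (EBs) and given 0.5 µM retinoic acid (RA) for 4 days. The 12 bulk libraries hold unsorted EB cells. The 5 libraries that the labels call cluster2 hold EpCAM/CD38 double positive cells, which were sorted from such EBs by flow cytometry. Everything is 1 cell line and 1 treatment, so p-values measure the spread between libraries of that line. Bulk cells were not depleted of double positive cells, and in either group a contact made in fewer cells and a contact made less often per cell cannot be told apart.

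BMP ligands bind receptor serine/threonine kinases, which phosphorylate SMAD1, SMAD5 and SMAD9, and these enter the nucleus with SMAD4. The ID genes are classical direct targets of this signal, and their proteins bind E proteins such as the product of Tcf3 and keep them and their bHLH partners off DNA. Smad6 and Smad7 are targets too, and their proteins damp the pathway from within. In the early embryo BMP signalling favours epidermal and extraembryonic fates over neural ones, and ID proteins hold back neuronal differentiation.

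The libraries held 65148 to 241068 read pairs in bulk and 50508 to 118179 in double positive cells. The genes' own loops held 51 to 293 read pairs per bulk library and 64 to 168 per double positive library, so single loops mostly rest on a few read pairs. Foxa2 and Gata4, which encode endoderm transcription factors, had more read pairs in double positive cells (log2 fold changes 1.51 and 1.73, SE 0.26 and 0.24, edgeR adjusted p = 5.50e-06 and 2.13e-07). The genes of the sorting markers did not pass the test, with log2 fold changes of 1.05 for Epcam (adjusted p = 0.107) and 0.65 for Cd38 (adjusted p = 0.195), and neither did Gata6 (0.02, adjusted p = 0.973) or Sox17 (-0.57, adjusted p = 0.404). The 6 genes of the list for the sorted cells (Epcam, Cd38, Gata4, Gata6, Foxa2 and Sox17) together had 102 to 424 normalized CPM (read pairs scaled to a common library size) in bulk and 488 to 641 in double positive cells. All 5 tested genes of the neural marker list (Lhx1, Neurod1, Neurog1, Rfx4 and Pax6) fell. Isl1 had no double positive read pair, and no double positive loop used its anchors. Summed with Isl1, these genes went from 685 to 1306 normalized CPM in bulk to 47.2 to 111 in double positive cells. The part of this difference in cell makeup in the results below was not tested. Of the ES cell markers Pou5f1 rose and Esrrb fell, with Nanog and Zfp42 under the filter. No double positive loop used an anchor of Esrrb. Of the fibroblast markers Col1a2 fell, Col1a1 was not called, and Thy1 and Postn were under the filter. The double positive loops use a much smaller and more promoter-rich set of anchors. Among all loops with a start site, the share of read pairs with a start site at both anchors was 31.0% ± 1.64 (SD, n = 12) in bulk and 73.2% ± 0.217 (n = 5) in double positive cells. The part of this that goes with the anchors can be seen by keeping loops between anchors that both groups use (shared anchors), which gave 66.4% and 73.2%. On chromosome 2 from 150 Mb on, where Id1 and Bmp7 lie, bulk libraries held 3.93 ± 0.812 (SD, n = 12) times as many read pairs per anchor as on the other autosomes, against 0.935 ± 0.0252 (n = 5) in double positive cells. Gene-level values for these 2 genes are therefore also given against the other genes of that segment. Values of their single loops are on the scale of the whole genome alone.

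Read pairs at Bmp7, Id2, Id3, Id4 and Bmp2 were lower in double positive cells, while Id1, Smad6 and Smad7 did not pass the test. So 5 of the 8 genes tested fell and 0 rose, and of those that fell Bmp2 had no anchor in any double positive loop. Across all 14115 genes tested, 42.8% fell and 20.6% rose, with a median log2 fold change of -0.52, so a fall as such was common. Bmp4 had too few read pairs for a test. All log2 fold changes here are double positive over bulk, on read pairs scaled by TMM (trimmed mean of M values) and given as normalized CPM. The scale matters: with library size alone the median of all genes was 1.21, and Id1 and Smad7 then rose with log2 fold changes of 1.42 and 1.45, edgeR adjusted p = 8.64e-08 and 1.32e-05. Against the median of all genes they stood at 0.17 and 0.22 under TMM and at 0.21 and 0.23 under library size alone.

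**Figure D1:**
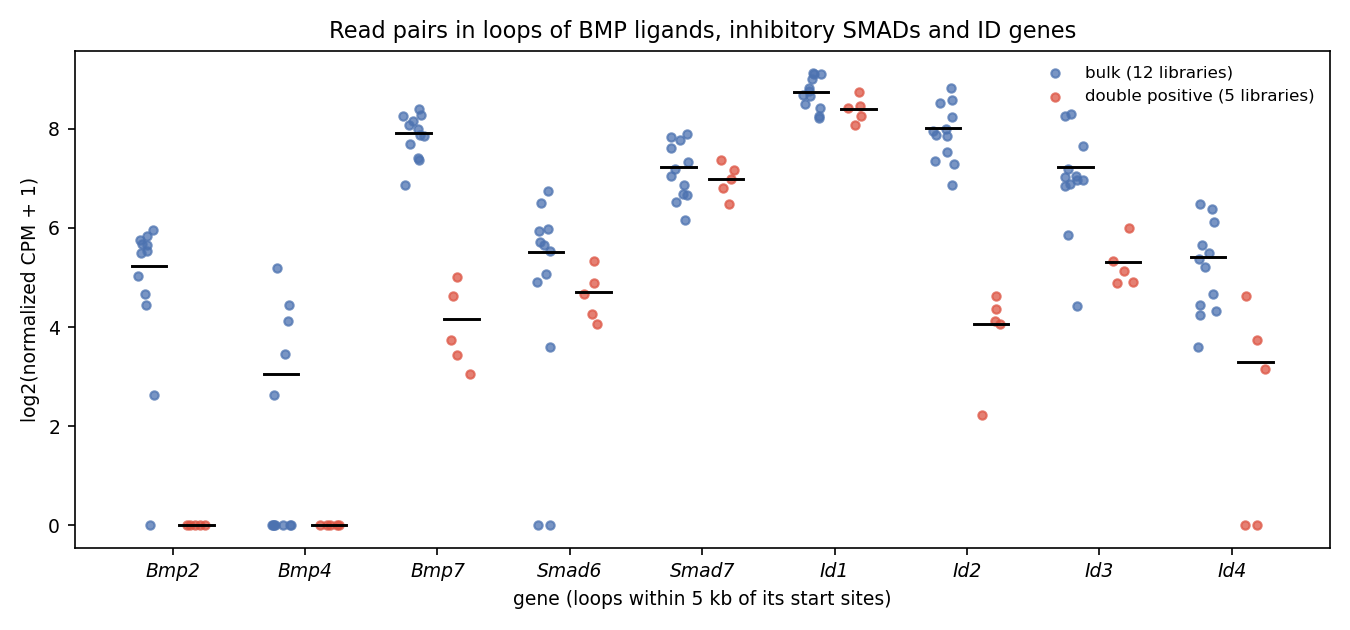
Normalized read pairs per library at the 9 genes, as log2(normalized CPM + 1); blue points are the 12 bulk libraries, red points the 5 double positive libraries, and black lines the log2 of the group mean plus 1. Bmp7 and Id2 separate the groups fully, and Id1 and Smad7 lie at similar heights in both.

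Bmp2, a ligand best known for bone and heart development, starts at position 133377895 of chromosome 2 and had 34 loops, all of them in bulk. Its 37 bulk read pairs gave a lowest normalized CPM of 0, a median of 44.7 and a highest of 61.5, while none of the double positive libraries had a read pair there. The gene fell (edgeR adjusted p = 7.90e-06). No fold is given, since neither of its 2 anchors was used by any double positive loop, and the 0 then says nothing about how often contacts occurred. Bmp4, the ligand that patterns the early mesoderm, lies on chromosome 14 (47003195 to 47010344) and had 8 loops of 1 read pair each, all in bulk and all from an anchor inside the gene.

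At Bmp7, a ligand active in kidney, eye and early epithelia that lies on chromosome 2 (172693513 to 172765822), the bulk libraries ranged from 116 to 337 normalized CPM with a median of 245. Double positive libraries 1 to 5 had 7.30, 9.77, 31.5, 23.7 and 12.3. Each of them lay below each bulk library, a separation in this direction that 14.9% of all tested genes showed. The opposite separation, with every double positive library above every bulk library, was found for 7.22% of all tested genes and for 0 of the 9 genes here. The log2 fold change was -3.93 (SE 0.34, edgeR adjusted p = 8.95e-12). Among the 384 tested genes of distal chromosome 2 alone, 54.2% of which fell, it was -2.42 (adjusted p = 2.84e-10). On shared anchors it was -1.96 (adjusted p = 0.000485). Of its 270 bulk read pairs, 166 came from an anchor 3858 to 6122 bp inside the gene that no double positive loop used, and all 14 double positive read pairs came from the promoter anchor. By mean normalized CPM the leading loops of Bmp7 ran from the inner anchor and from the promoter anchor to the same intergenic anchor 100698 bp downstream, with 12 and 9 read pairs in bulk and 0 in double positive cells, whose loops did not use that partner. By CPM of library size alone, which gives double positive read pairs more weight, the leading loops went from the promoter anchor to the start sites of Spo11 and Rae1, upstream of Bmp7. These held 7 and 2 read pairs in bulk and 1 and 3 in double positive cells. All of these loops had too few read pairs for a test.

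The 250 bases before the start sites of Bmp2 and Bmp7, read from the mm9 genome on each gene's strand, are shown because the promoter anchors cover them. Capitals mark the letters GGCGCC or GGAGCC, short GC-rich boxes that SMAD complexes are known to bind, on either strand (GGCTCC is GGAGCC on the other strand). Of 22372 promoters of this length, 11.6% hold GGCGCC and 27.8% hold GGAGCC. Bmp2 has neither and Bmp7 has 1 GGAGCC.
Bmp2 (chr2:133377645-133377894, plus strand): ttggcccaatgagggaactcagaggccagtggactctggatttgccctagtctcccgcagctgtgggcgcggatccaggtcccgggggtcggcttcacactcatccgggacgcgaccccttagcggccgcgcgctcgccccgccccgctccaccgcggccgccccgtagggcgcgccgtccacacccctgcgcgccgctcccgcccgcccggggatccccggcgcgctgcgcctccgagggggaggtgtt
Bmp7 (chr2:172765823-172766072, minus strand): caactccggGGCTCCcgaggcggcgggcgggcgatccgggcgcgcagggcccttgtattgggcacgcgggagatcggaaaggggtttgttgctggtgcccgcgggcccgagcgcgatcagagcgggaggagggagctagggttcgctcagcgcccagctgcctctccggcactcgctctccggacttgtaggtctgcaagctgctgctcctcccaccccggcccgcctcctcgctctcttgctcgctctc

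Smad6, whose protein preferentially inhibits BMP receptors, lies on chromosome 9 and had 52 loops. The bulk libraries ranged from 0 to 107 normalized CPM with a median of 47.5, and the double positive libraries had 18.3, 24.4, 39.3, 15.8 and 28.8. The groups overlapped, and the log2 fold change of -0.91 (SE 0.46) missed the threshold (edgeR adjusted p = 0.0797). On shared anchors it was 0.30 (adjusted p = 0.701) and with library size alone 0.82 (adjusted p = 0.106). Against the median of all genes, Smad6 stood at -0.39 under TMM, -0.12 on shared anchors and -0.40 with library size alone. The loop that led by mean CPM, normalized or by library size alone, ran from its promoter anchor 28190 bp upstream to an exon of 1110036E04Rik, with 2 read pairs in bulk and 3, 1, 4, 0 and 0 in the double positive libraries.

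Smad7, whose protein inhibits both BMP and TGF-beta receptors, lies on chromosome 18 and had 100 loops. Its levels ran from 71.0 to 236 normalized CPM in bulk, with a median of 138. The double positive libraries had 142, 87.9, 126, 110 and 164, all within the bulk range. The log2 fold change was -0.30 (SE 0.25, edgeR adjusted p = 0.305), and it was 0.07 on shared anchors. Against the median of all genes it stood at 0.22 under TMM and at -0.35 on shared anchors. It was called lower with loops of at least 20 kb (-1.21, adjusted p = 0.000317), with each loop of a library counted once (-0.89, adjusted p = 0.00219) and with a replicate block over 10 libraries (-0.64, adjusted p = 0.0418). Loops spanning over 100 kb held 48.4% ± 12.1 (SD, n = 12) of its read pairs in bulk. In double positive libraries 1 to 5 they held 12.8%, 11.1%, 0%, 14.3% and 10%, all below every bulk library (exact permutation test, two-sided, adjusted p = 0.00113 over the 7 genes with values in both groups). Over all start sites the same share was 54.4% ± 1.06 (SD, n = 12) in bulk and 45.1% ± 0.309 (n = 5) in double positive cells. With shared anchors the difference at Smad7 fell from -38.8 to -14.8 percentage points (exact permutation p = 0.398).

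The short contacts of Smad7 lay within its own gene. From the anchor at 75534384 to 75540976, which covers another annotated start site, a loop to an anchor over the end of the gene (75554053 to 75559318) had 1 read pair over the 12 bulk libraries together and 8, 1, 1, 3 and 9 in the double positive libraries. This loop rose (log2 fold change 3.18, SE 0.76, edgeR adjusted p = 0.000104). The loop from the same anchor to an intronic anchor at 75543975 to 75546890 held 5 read pairs in bulk and 6, 3, 5, 1 and 5 in double positive cells, and rose as well (log2 fold change 1.46, SE 0.64, adjusted p = 0.0376). From the promoter anchor the loop to the end of the gene, with 9 read pairs in bulk and 28 in double positive cells, did not pass (log2 fold change 1.15, adjusted p = 0.0589). The loop between the promoter anchor and the anchor at 75534384 to 75540976 had 16 read pairs in bulk and 1, 4, 1, 2 and 4 in double positive cells, and was not called either (log2 fold change -0.71, SE 0.57, adjusted p = 0.277).

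Loops at the 9 genes with enough read pairs for a test of their own numbered 21, of which 13 were at Id1, 5 at Smad7, 2 at Id2 and 1 at Id3. Of these, 4 rose and 7 fell. The 13 loops at Id1 were not set against other loops of distal chromosome 2, where bulk read pairs are in excess. Among all 5369 loops tested 38.1% rose and 22.4% fell. DESeq2 called 1 rise and 7 falls, shared anchors gave 5 rises and 3 falls, library size alone gave 14 and 5, and the replicate block gave 0 and 2. Leaving out double positive library 1 or 5 gave 1 rise, and leaving out library 2 or 3 gave 2. With any 1 double positive library left out 6 or 7 falls were called, but 4 of the 7 falls had a partner anchor that no double positive loop used, so leaving out such libraries does not test them.

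Id1, an inhibitor of bHLH factors that responds quickly to BMP, starts at position 152561987 of chromosome 2 and had 144 loops. The bulk libraries ranged from 296 to 556 normalized CPM with a median of 420. Double positive libraries 1 to 5 had 350, 342, 307, 268 and 427, of which library 4 alone lay below all bulk libraries. The log2 fold change was -0.35 (SE 0.18, edgeR adjusted p = 0.0961). Its direction turned with the reference: among the genes of distal chromosome 2 alone, 20.3% of which rose, it was 1.23 (adjusted p = 1.01e-13), against a median of -0.82 for those genes. On shared anchors of the whole genome it was -0.67 (adjusted p = 0.00728), and loops counted once gave another called fall of -0.76.

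Within Id1 the contacts shifted to the downstream side, a comparison that needs no scaling between libraries. Id1 had 2 anchors, one over its start site (152559872 to 152562870) and one downstream (152564564 to 152571455), which begins 2577 bp past the start site, beyond the end of the gene at 152563146, and overlaps an exon of Gm14162. The downstream anchor took part in 31.6% to 65.2% of the Id1 read pairs of the bulk libraries, with a median of 46.9%. In double positive libraries 1 to 5 it took part in 78.1%, 75.7%, 82.1%, 79.4% and 72.1%. The groups did not overlap, and the means of 47.1% ± 10.7 (SD, n = 12) and 77.5% ± 3.77 (n = 5) differed by 30.4 percentage points (exact permutation test, two-sided, p = 0.000162, the smallest that 6188 splits can give). Adjusted over 6 such shares, all of them chosen after values had been seen, p was 0.000323. The difference was 24.7 points on shared anchors (p = 0.00145, exact permutation) and 20.6 points with each loop of a library counted once (p = 0.00259, exact permutation).

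Partners upstream of the Id1 start site lost ground. They took 52.6% ± 6.75 (SD, n = 12) of the read pairs that left the gene's own anchors in bulk. In the double positive libraries they took 31.0%, 27.1%, 30.0%, 32.0% and 33.7%, all below every bulk library (exact permutation, two-sided, adjusted p = 0.00113 over 7 genes). On shared anchors the difference shrank from -21.8 to -10.6 percentage points (exact permutation p = 0.0344). The share of upstream partners was not among the planned tests. How often other genes separate the groups in such a share was not counted.

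**Figure D2:**
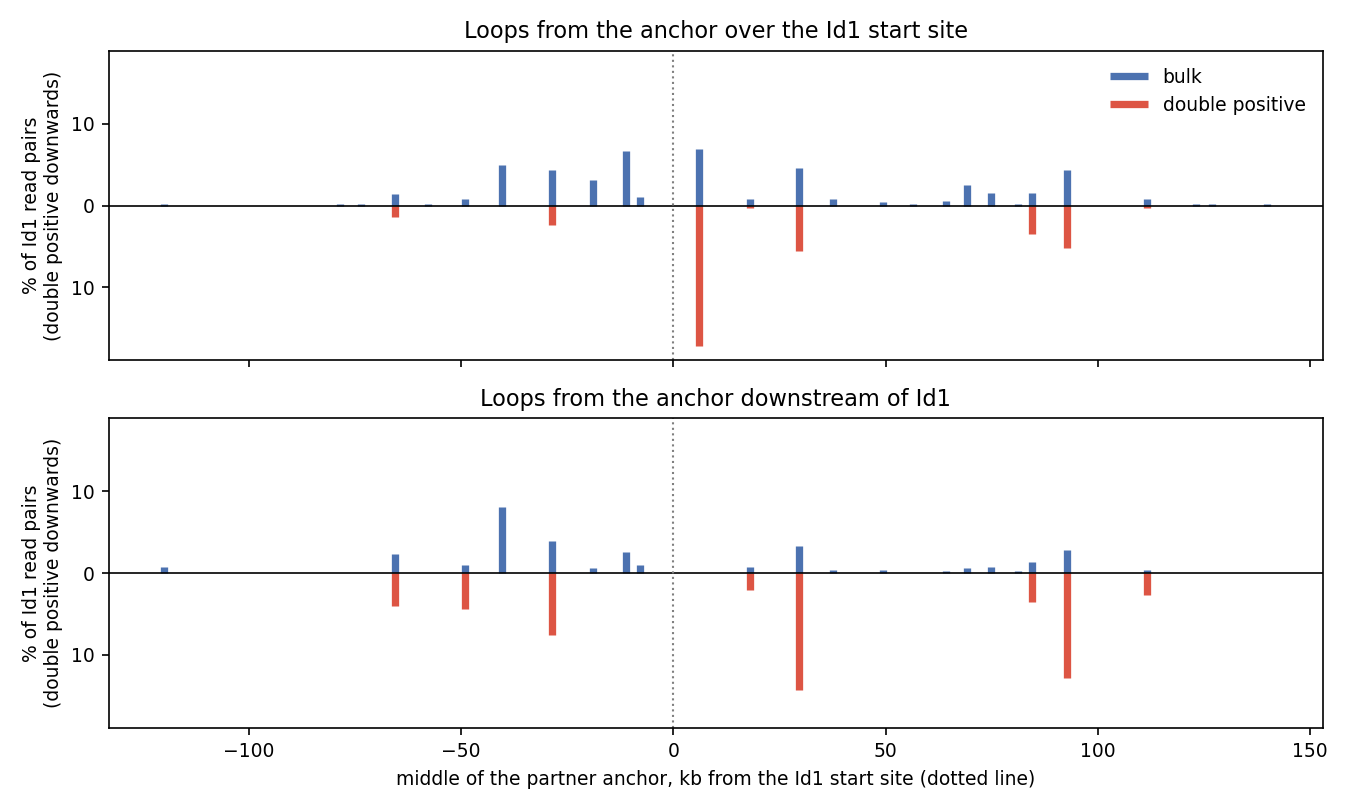
Share of all Id1 read pairs of a group (y axis, %) in each loop, placed by the distance of the partner anchor from the Id1 start site (x axis, kb, up to 150 kb); bulk is drawn upwards and double positive cells downwards, for loops from the start site anchor (top) and from the downstream anchor (bottom). Bulk has partners 11203 and 40412 bp upstream that double positive cells lack, and double positive cells have tall bars 29665 and 92762 bp downstream.

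Of the 13 single loops of Id1 tested, the 2 called higher went downstream and the 4 called lower upstream, while 7 were not called. Among these 7, loops from the downstream anchor to partners 49028 and 28634 bp upstream had 5 and 20 read pairs in bulk. In double positive cells they had 15 and 26 (log2 fold changes 1.07 and -0.03, edgeR adjusted p = 0.127 and 0.961). The loop from the downstream anchor to an anchor over exons of Bcl2l1 and Cox4i2 (152589120 to 152594184) had 17 read pairs in bulk, 0 to 4 per library with a median of 2. In the double positive libraries it had 17, 13, 4, 3 and 12, and it rose (log2 fold change 1.07, SE 0.44, edgeR adjusted p = 0.0282). Bcl2l1 encodes the survival protein BCL-XL and Cox4i2 a subunit of cytochrome c oxidase. To the start site of Bcl2l1 (152651084 to 152658413) the downstream anchor had 14 read pairs in bulk and 12, 12, 8, 1 and 11 in the double positive libraries, also a rise (log2 fold change 1.22, SE 0.47, adjusted p = 0.0176). From the anchor over the Id1 start site the loops to these same partners had 23 and 22 read pairs in bulk against 19 and 18, and were not called. The middle 200 bases of the nearer partner, which lies on mm9 chromosome 2, are printed as a part of the anchor whose contact rose. Where in the anchor the contact lies was not located. The letters GGCGCC and GGAGCC do not occur in these bases on either strand, which leaves the rest of the anchor undescribed.
Id1 partner near Cox4i2 (chr2:152591552-152591751, plus strand): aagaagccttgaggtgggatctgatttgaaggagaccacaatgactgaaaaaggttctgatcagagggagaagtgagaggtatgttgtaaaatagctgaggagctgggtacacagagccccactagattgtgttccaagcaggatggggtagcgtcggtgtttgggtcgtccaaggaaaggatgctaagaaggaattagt

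The loops that fell at Id1 all pointed upstream. From its start site anchor the gene met an intergenic anchor 11203 bp upstream (152548715 to 152552853) with 34 bulk read pairs in 11 libraries, and no double positive read pair. The anchor at 152517080 to 152526069, at start sites of H13 and Mcts2, met the downstream anchor with 41 bulk read pairs and the start site anchor with 25, again with none in double positive cells. Double positive loops did not use either partner anchor at all, so no fold is given for these 3 loops (edgeR adjusted p = 4.38e-10, 1.72e-11 and 7.12e-08). The remaining one, from the start site anchor to an exon of H13 (152531961 to 152534744), had 22 read pairs in bulk and 3, 3, 0, 1 and 1 in the double positive libraries (log2 fold change -1.70, SE 0.58, adjusted p = 0.00736). On distal chromosome 2 bulk libraries held 3.93 times as many read pairs per anchor as on the other autosomes, against 0.935 in double positive cells. Rises and falls of Id1 loops relative to that segment were not tested. The contact between the gene's own 2 anchors, with 35 read pairs in bulk and 9, 11, 9, 9 and 21 in double positive cells, was not called (log2 fold change 0.39, adjusted p = 0.375).

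Id2, an ID gene with roles in neural, lymphoid and mammary progenitors, lies on chromosome 12 (25778666 to 25780957) and had 125 loops from 1 anchor over the whole gene. Bulk libraries ranged from 116 to 455 normalized CPM with a median of 242. The double positive libraries had 3.65, 19.5, 23.6, 15.8 and 16.4, each below every bulk library. The log2 fold change was -4.10 (SE 0.37, edgeR adjusted p = 3.03e-11), it was -2.40 on shared anchors (adjusted p = 2.93e-06) and -2.38 with library size alone (adjusted p = 4.37e-06). In bulk most contacts reached upstream into the intergenic stretch beside the gene. Upstream partners took 91.5% ± 9.84 (mean and SD, n = 12) of the Id2 read pairs of a bulk library. In double positive libraries 1 to 5, which held 14 read pairs in all, they took 0%, 75%, 66.7%, 50% and 75%. The mean of these libraries was 53.3% ± 31.5 (SD, n = 5), and the groups differed (exact permutation, two-sided, adjusted p = 0.00283 over 7 genes). Without double positive library 1, which held 1 read pair, the difference moved from -38.2 to -24.8 percentage points. The upstream share was not a planned test here either. The planned share of read pairs over 100 kb was 71.1% ± 9.30 (SD, n = 12) in bulk and 95.0% ± 11.2 (n = 5) in double positive cells. It passed (exact permutation, two-sided, adjusted p = 0.00283 over 7 genes), on 1 to 4 read pairs per double positive library, and the groups overlapped.

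Both loops of Id2 that could be tested fell. The loop to an intergenic anchor at 25808395 to 25810466, 28474 bp upstream of the start site, had 21 read pairs in 9 bulk libraries and 0, 0, 0, 0 and 1 in the double positive libraries (log2 fold change -3.70, SE 0.75, edgeR adjusted p = 4.63e-06). This anchor was among those that double positive loops used. The loop to the next anchor outwards, at 25813398 to 25818216, had 23 bulk read pairs in 9 libraries, and that anchor was in no double positive loop (adjusted p = 1.18e-07). A contact farther out, with an intergenic anchor at 25987859 to 25991137, 208541 bp upstream, held 5 read pairs in bulk and 0, 2, 1, 1 and 1 in double positive cells, 5 of their 14, and was too rare for a test. The middle 200 bases of the first partner, on mm9 chromosome 12, hold 1 GGAGCC box in capitals. They are a part of the anchor whose contact fell, and where in it the contact lies was not located.
Id2 partner upstream (chr12:25809330-25809529, plus strand): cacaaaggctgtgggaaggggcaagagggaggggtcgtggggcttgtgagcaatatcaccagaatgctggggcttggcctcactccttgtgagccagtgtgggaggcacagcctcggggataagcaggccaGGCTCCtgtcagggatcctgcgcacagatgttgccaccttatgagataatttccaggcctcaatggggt

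Id3, which acts with Id1 in vessels and the forebrain, lies on chromosome 4 (135699412 to 135701670) and had 107 loops from 3 anchors, and double positive loops used the middle one, over the start site, alone. Bulk libraries ranged from 20.5 to 314 normalized CPM with a median of 127. Double positive libraries 1 to 5 had 29.2, 34.2, 39.3, 63.1 and 28.8, which overlaps the low end of the bulk range. The log2 fold change was -2.02 (SE 0.37, edgeR adjusted p = 1.82e-05). It was -1.26 on shared anchors (adjusted p = 0.00445), and with library size alone it was -0.26 (adjusted p = 0.543). Against the median of all genes, Id3 stood at -1.50 under TMM, -1.68 on shared anchors and -1.47 with library size alone. The loop from the start site to an intergenic anchor 8331 bp upstream fell, from 16 read pairs in 8 bulk libraries to 3, 1, 0, 0 and 1 (log2 fold change -1.84, SE 0.63, adjusted p = 0.00763). A loop to the start site of E2f2, a cell cycle factor, had 4 read pairs in each group.

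Id4, the ID gene of neural progenitors and spermatogonia, lies on chromosome 13 (48356796 to 48359405) and had 34 loops from 1 anchor. Bulk libraries ranged from 11.2 to 88.8 normalized CPM with a median of 38.2, and the double positive libraries had 0, 0, 23.6, 7.88 and 12.3. The log2 fold change was -2.23 (SE 0.60, edgeR adjusted p = 0.00163), and with library size alone it was -0.57 (adjusted p = 0.423). Against the median of all genes, Id4 stood at -1.71 under TMM and at -1.78 with library size alone. All 7 double positive read pairs went downstream, to partners such as the anchors at Phf2 and Ninj1, 609838 and 926010 bp away, where bulk had none. In bulk libraries a mean of 83.5% ± 23.6 (SD, n = 12) of the Id4 read pairs went upstream.

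The promoters of the ID genes are shown because the 4 genes differ so much in their contacts. Capitals again mark GGCGCC or GGAGCC on either strand. In these 250 bases Id2 has 1 of each, a pair that 4.71% of all promoters hold, Id1 and Id4 have 1 GGAGCC each, and Id3 has neither. The order differs over the genes' whole anchors. There GGCGCC occurs 0.202 times per kb at Id1, 0.729 at Id2, 1.52 at Id3 and 0.776 at Id4, against 0.0629 over all anchors. These backgrounds are not matched for GC content, and a link of the boxes to the contacts was not tested.
Id1 (chr2:152561737-152561986, plus strand): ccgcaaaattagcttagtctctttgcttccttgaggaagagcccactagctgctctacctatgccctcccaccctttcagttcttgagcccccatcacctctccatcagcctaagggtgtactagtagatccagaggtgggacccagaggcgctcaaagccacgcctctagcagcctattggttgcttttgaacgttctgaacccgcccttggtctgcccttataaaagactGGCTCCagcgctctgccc
Id2 (chr12:25780958-25781207, minus strand): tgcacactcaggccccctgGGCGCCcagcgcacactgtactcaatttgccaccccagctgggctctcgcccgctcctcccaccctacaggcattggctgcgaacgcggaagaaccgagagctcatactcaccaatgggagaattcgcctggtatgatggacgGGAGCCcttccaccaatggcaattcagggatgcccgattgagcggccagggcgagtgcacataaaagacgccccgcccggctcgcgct
Id3 (chr4:135699162-135699411, plus strand): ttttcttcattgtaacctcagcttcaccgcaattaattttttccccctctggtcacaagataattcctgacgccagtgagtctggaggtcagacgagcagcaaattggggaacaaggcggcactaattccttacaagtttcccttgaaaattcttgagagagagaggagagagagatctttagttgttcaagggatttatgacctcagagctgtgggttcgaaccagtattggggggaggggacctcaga
Id4 (chr13:48356546-48356795, plus strand): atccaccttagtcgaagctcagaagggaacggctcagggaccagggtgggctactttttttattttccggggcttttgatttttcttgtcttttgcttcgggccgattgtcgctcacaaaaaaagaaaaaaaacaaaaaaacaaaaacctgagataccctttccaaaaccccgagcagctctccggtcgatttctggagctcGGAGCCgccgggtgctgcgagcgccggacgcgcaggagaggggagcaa

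Read against one another within a library, the ID genes divided their read pairs differently in the 2 groups, with Id1 first by mean in both. Id1 held 33.8% to 58.3% of the read pairs of the 4 genes in bulk, with a median of 48.8%. In double positive libraries 1 to 5 it held 91.4%, 86.4%, 78.0%, 75.6% and 88.1%. The groups did not overlap, and the means were 49.3% ± 7.74 (SD, n = 12) and 83.9% ± 6.81 (n = 5; exact permutation, two-sided, adjusted p = 0.000323 over 6 shares). Id2 went the other way, from 29.1% ± 9.51 (SD, n = 12) to 0.952%, 4.94%, 6.00%, 4.44% and 3.39%, with the same adjusted p. The shares of Id3 (16.5% in bulk and 9.99% in double positive cells, adjusted p = 0.172) and Id4 (5.11% and 2.15%, adjusted p = 0.172) did not pass the exact permutation test. On shared anchors the differences were 9.83 percentage points for Id1 and -7.68 for Id2 and no longer passed (exact permutation p = 0.0858 and 0.117). These shares were not corrected for the excess of bulk read pairs on distal chromosome 2, where Id1 lies. Between the inhibitory SMADs, Smad7 held 78.1% ± 16.7 (SD, n = 12) of the joint read pairs in bulk and 83.1% ± 5.59 (n = 5) in double positive cells (exact permutation, adjusted p = 0.540).

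**Figure D3:**
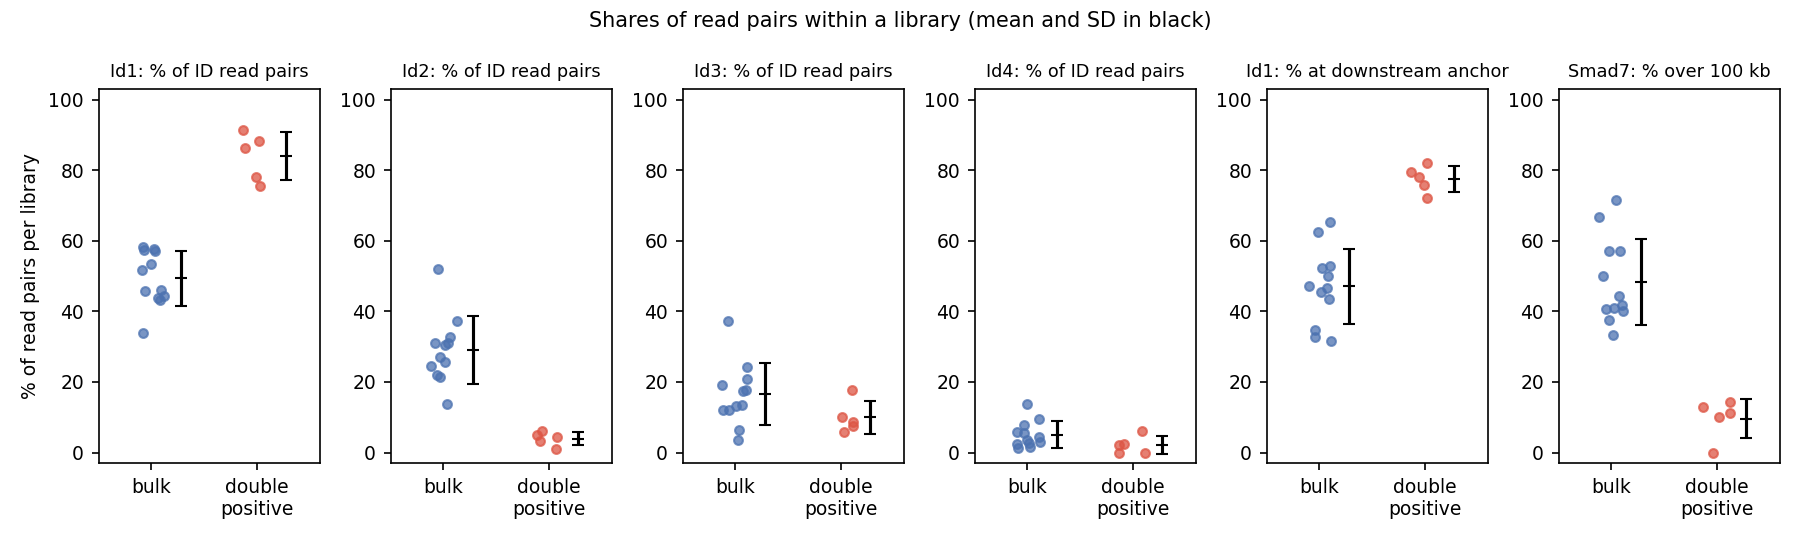
Shares of read pairs per library (y axis, %) in bulk and double positive cells: the part of the ID gene read pairs at each ID gene, the part of the Id1 read pairs at its downstream anchor, and the part of the Smad7 read pairs in loops over 100 kb; points are libraries, and black marks the mean with SD. The groups separate for Id1, Id2, the Id1 anchor and Smad7, and overlap for Id3 and Id4.

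Levels of the 9 genes can be put in order per kb of the anchors that each group used, which sets aside how wide those anchors are. In bulk Id1 stood first at 43.6 normalized CPM per kb (mean, n = 12), followed by Bmp7 at 39.5, Id2 at 31.3, Id3 at 22.6, Smad7 at 14.6, Id4 at 10.8, Smad6 at 6.49, Bmp2 at 6.08 and Bmp4 at 2.69. The range of each gene in this order overlapped with that of the next. Divided by each library's excess of read pairs per anchor on distal chromosome 2, Id1 was at 11.4 and Bmp7 at 10.2 normalized CPM per kb, below Smad7. In double positive cells Id1 stood at 34.3 normalized CPM per kb (mean, n = 5), with every library above every library of Id3, the next at 15.4 over the one anchor in use. Smad7 at 12.3, Smad6 at 5.69, Bmp7 at 4.40, Id4 at 2.27 and Id2 at 1.92 followed, and from Id3 on each range overlapped with the next. Bmp2 and Bmp4 had no anchor in double positive loops and so no such level.

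**Figure D4:**
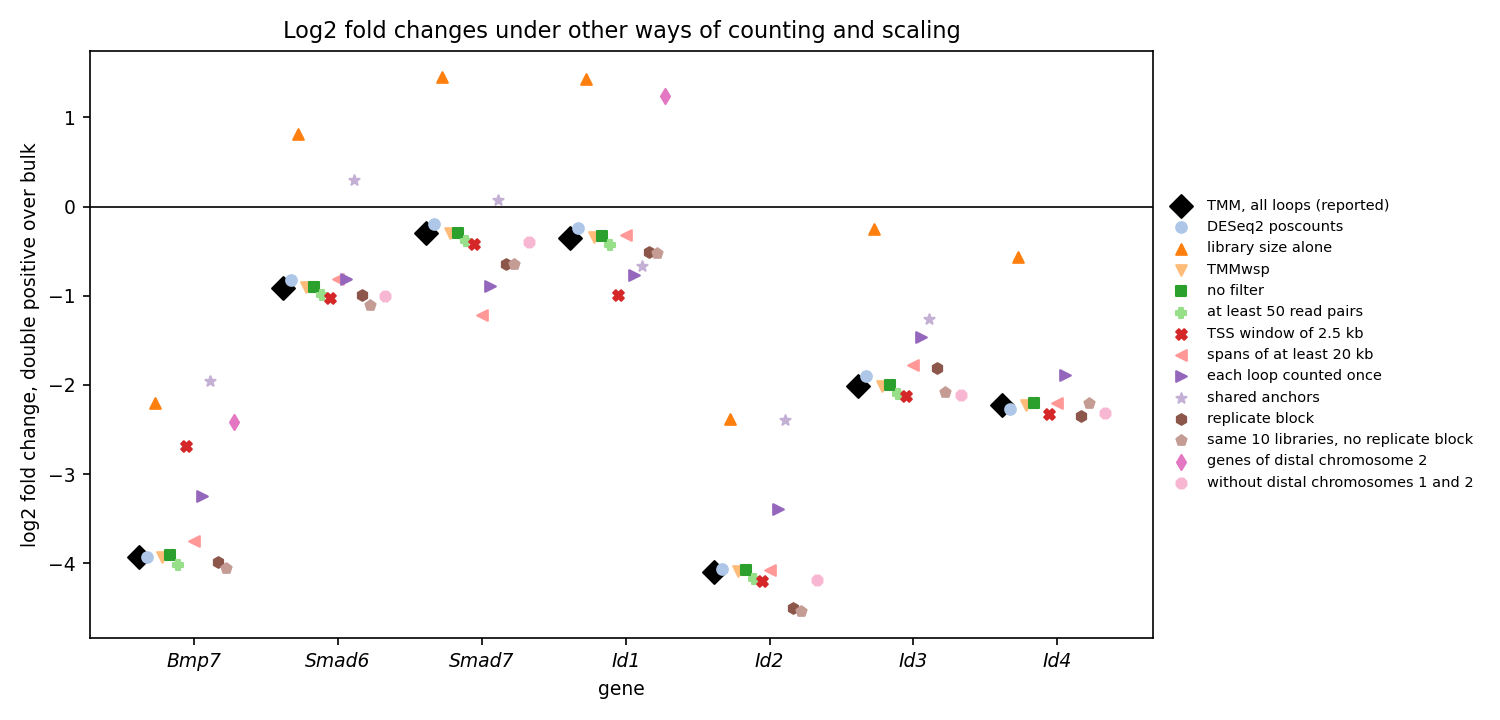
Log2 fold changes of 7 genes (y axis, double positive over bulk) under other ways of counting and scaling (symbols); Bmp2 is left out because no double positive loop used its anchors. Bmp7, Id2, Id3 and Id4 lie below 0 under each setting shown, and Smad6, Smad7 and Id1 change sign between settings. The median of all genes moves as well, from -0.52 under TMM to 1.21 with library size alone and 0.42 on shared anchors.

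Other genes of the pathway were read from a list of 65 genes, of which 54 could be tested. Of these, 32 fell, 4 rose and 18 were not called, against 42.8% and 20.6% of all genes, and their median log2 fold change was -1.34. Of the 32 that fell, 12 had no anchor in any double positive loop. On shared anchors, a setting that leaves out genes without double positive anchors by construction and moves the median of all genes to 0.42, 6 fell and 7 rose.

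Ligands fell in 5 of 6 cases tested, beside 42.8% of all genes, and 2 of the 5 had no double positive anchor. Gdf5, a joint ligand that had one, was among them (log2 fold change -2.06, SE 0.30, edgeR adjusted p = 4.72e-07). Of the receptors and co-receptors 6 of 10 fell and 0 rose. The type I receptor gene Bmpr1b had 88 read pairs in bulk and the co-receptor gene Eng 56, and neither had any in double positive cells, whose loops did not use their anchors (adjusted p = 4.62e-08 and 8.67e-08). The other receptors of type I on the list differed less and were not called. Log2 fold changes were -1.06 for Acvrl1 (adjusted p = 0.0644), -0.67 for Bmpr1a (adjusted p = 0.0559) and -0.43 for Acvr1 (adjusted p = 0.268). All 4 signal-carrying SMADs fell, with log2 fold changes of -2.41 for Smad1 (SE 0.37) and -1.54 for Smad5 (SE 0.42), while Smad4 and Smad9 had no double positive anchor.

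Extracellular inhibitors went both ways, with 5 lower and 2 higher of 10, and 2 of the 5 had no double positive anchor. Fstl3, which encodes a follistatin-like protein that binds activin, had 18.1 ± 15.1 normalized CPM (SD, n = 12) in bulk and 96.3 ± 10.2 (n = 5) in double positive cells (log2 fold change 2.31, SE 0.37, edgeR adjusted p = 2.42e-06). Dand5, of the Cerberus family of Nodal and BMP antagonists, had 38.5 ± 21.7 (SD, n = 12) and 142 ± 23.4 (n = 5), a log2 fold change of 1.75 (SE 0.29, adjusted p = 4.17e-06). Inside the cell 6 of 9 regulators fell. The pseudoreceptor gene Bambi had 85 bulk read pairs and the ubiquitin ligase gene Smurf2 67, and both lacked double positive anchors (adjusted p = 5.04e-07 and 3.33e-06), whereas Smurf1 was at 0.17 (adjusted p = 0.702).

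Other targets of the pathway fell in 4 and rose in 2 of 12 cases, and 2 of the 4 had no double positive anchor. Msx2, a homeobox target, had 12.3 ± 8.48 normalized CPM (SD, n = 12) in bulk and 34.2 ± 13.9 (n = 5) in double positive cells (log2 fold change 1.33, SE 0.49, edgeR adjusted p = 0.0180). Atoh8, a bHLH target, had 15.3 ± 11.3 (SD, n = 12) and 42.2 ± 10.4 (n = 5), a log2 fold change of 1.23 (SE 0.43, adjusted p = 0.0126). Among the E proteins, the partners that ID proteins bind, Tcf4 fell (log2 fold change -3.21, SE 0.36, adjusted p = 3.14e-09), Tcf12 fell (-1.28, SE 0.45, adjusted p = 0.0134), and Tcf3 was at 0.25 (SE 0.28, adjusted p = 0.438). Genes named from the list other than Bambi, Bmpr1b, Smurf2, Eng, Fstl3, Dand5, Msx2 and Atoh8 were chosen after their values were seen.

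**Figure D5:**
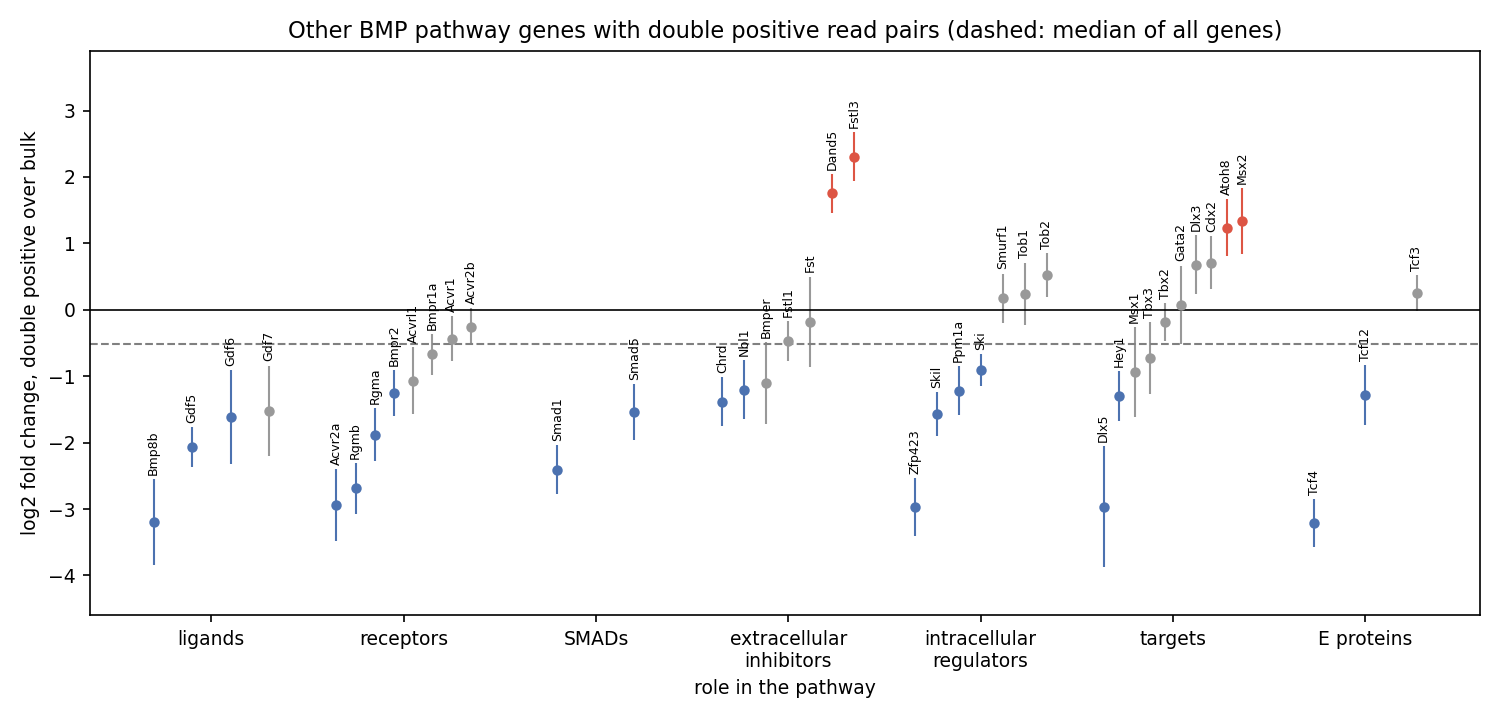
Log2 fold changes (y axis, double positive over bulk; bars are standard errors) of the other pathway genes with double positive read pairs that were tested, by role (x axis), without 1 gene not reported here; blue fell, red rose, grey was not called, and the dashed line is the median of all genes, -0.52. The genes that rose are extracellular inhibitors and targets.

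Across the 17 libraries the gene whose log2(CPM + 1) followed each of the 9 most closely, leaving out genes that share a loop with it, was Trpm3 for Bmp2 (Pearson r = 0.985), Bcat1 for Bmp7 (0.981), Nhlh2 for Id2 (0.971) and Mical1 for Smad6 (0.950). For Id3 it was 4933422H20Rik (0.919), for Id1 Crbn (0.890), for Id4 Ttc32 (0.883) and for Smad7 Zfp788 (0.859). These are descriptions over libraries of 2 groups, whose difference and depth all genes share, picked as the highest of many.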

How the data were processed

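The deposited values are counts: the read pairs that join each pair of anchors in each of the 17 libraries, without normalization. The authors used HiC-Pro for alignment (build mm9) and hichipper for peaks and loops, and a loop without any read pair in a library is not listed for it. Which samples' peaks gave the anchors is not given in the sources used here. In the files' coordinates, counted from 1, 100% of anchor starts and 99.9986% of anchor ends lay at GATC sites, where the enzyme cuts.

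Overlapping anchors of the 17 libraries were joined, from 218663 to 216081, and 700 read pairs whose anchors fell together were dropped. Loops were given to a protein-coding gene (GENCODE, mm9) by anchors at most 5 kb from its start sites, and 19244 of 22380 genes had one. Genes and loops that reached 20 read pairs in all and were seen in 5 or more libraries entered the test of edgeR 4.0.16 under R 4.3.3 (TMM, quasi-likelihood test, Benjamini-Hochberg adjustment, threshold 0.05). Shares within a library were compared by exact permutation of the libraries with Python 3.11.15 and scipy 1.17.1. Alternatives were DESeq2 1.42.0, other scalings, filters and windows, loops of at least 20 kb or counted once, shared anchors and left-out libraries. In simulated data on 14115 genes with bulk against double positive cells, 16% of 2-fold and 67% of 4-fold changes were recovered and 1.19% of calls were false. On 5369 loops these were 0%, 26% and 0%. The simulation used a fixed dispersion and gave both groups the same composition, apart from equal numbers of rises and falls. The real groups differed in the anchors used and in their TMM factors (mean 0.697 in bulk and 2.41 in double positive cells). These rates therefore need not hold for the calls reported here.

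The members and gene lists were chosen with earlier results of these data known. The text names the 9 genes, the 4 other pathway genes with the largest change in each direction, the loops called, loops among the 2 of highest mean CPM of each gene (ranked by library size alone or, as added later, by normalized CPM), and the gene most like each. Whether PCR copies were removed from the read counts is not given in the sources used here. No 2 libraries of a group agreed within sampling noise (largest chi-square p = 2.38e-68 in bulk and 0.000539 in double positive cells). Double positive libraries came closer to it, with chi-square per degree of freedom of 1.05 to 1.16 against 1.37 to 2.51 in bulk. Whether each double positive library came from its own sort is not given in the sources used here, and the tests treat the libraries as independent. A sequence on chromosome 18 is not printed, and 1 gene of the pathway list, counted with the others, is not reported by name.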

Additional observations from a re-analysis of the deposited data

Results flagged for a closer look

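Of 31 sets of values checked for a library that stands apart, 1 did: the share of Id2 read pairs in loops over 100 kb was 100%, 100%, 100%, 100% and 75% in the 5 double positive libraries, so that the gap to the nearest library made up the whole range (a ratio of 1). Chance marks about 1 in 20 such sets. These libraries held 1 to 4 Id2 read pairs each, so a single read pair sets this value.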

How the results depend on the processing

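Bmp7 and Id2 were lower under each alternative that could be fitted, among them DESeq2, a minimum of 50 read pairs, loops of at least 20 kb, loops counted once, shared anchors, the replicate block and each library left out. Bmp2 was lower with DESeq2, loops of at least 20 kb, loops counted once and each library left out. No double positive loop used its anchors, so these settings could not have given another direction and do not test its fall. Bmp2 had no value on shared anchors, at 50 read pairs or under the replicate block. Library size alone moved the median of all genes to 1.21 and gave log2 fold changes of 0.82 for Smad6, 1.45 for Smad7, 1.42 for Id1, -0.26 for Id3 and -0.57 for Id4, with 2 of the 9 genes higher and 3 lower, 17 other pathway genes higher and 18 lower, 14 loops of the genes higher, and 7800 genes higher and 3702 lower. Among all calls the share of higher ones was 67.8% under it, 71.9% on shared anchors and 32.5% under TMM. Shared anchors gave 0.30 for Smad6, 0.0681 for Smad7 and -0.67 for Id1 (called), with a median of all genes of 0.42. They gave 7 other pathway genes higher and 6 lower, 3 loops lower and 988 genes lower. Id4 had too few read pairs there. Among genes of distal chromosome 2 Id1 was at 1.23. A TSS window of 2.5 kb gave called falls of -1.02 for Smad6 and -0.99 for Id1, and 2 loops higher. Loops counted once gave -0.89 for Smad7 and -0.76 for Id1, loops of at least 20 kb -1.21 for Smad7, and at least 50 read pairs -0.43 for Id1, all called, with 3786 genes lower and 0 loops higher and 0 lower of 3 tested. No filter gave 9771 genes lower. Loops with at least 5 read pairs in any number of libraries gave 11 higher and 44 lower, and DESeq2 1 higher.

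Replicate numbers did not pair the libraries: correlations of same-numbered libraries lay between -0.0143 and 0.0104. The replicate block over the 10 libraries numbered 1 to 5 gave -0.64 for Smad7 and -0.51 for Id1 (called), 2 other pathway genes higher, 0 loops higher and 2 lower, and 3966 genes lower. The same 10 libraries without the block gave -1.10 for Smad6, -0.64 for Smad7 and -0.52 for Id1 (called), 2 other pathway genes higher, and 1 loop higher and 2 lower.

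Leaving out 1 library put Id1 between -0.45 and -0.28, called lower without bulk library 1 alone (-0.40), and Smad6 between -1.06 and -0.76, called lower without bulk library 9, 10 or 12. It put the loops called higher between 1 and 4.

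For the shares within a library, differences in percentage points were as follows. Over 100 kb, shared anchors gave -6.12 for Bmp7, -13.3 for Smad6 and -14.8 for Smad7, a limit of 50 kb gave -16.3 for Smad6 and 4.91 for Id1, and loops counted once gave 8.71 for Id1. Of the ID read pairs, shared anchors gave 9.83 at Id1 and -7.68 at Id2, and loops counted once 1.36 at Id3. The Smad7 share of both inhibitory SMADs was -2.34 with loops counted once. Upstream partners gave 23.2 and 14.9 at Smad6 with shared anchors and loops counted once, and 19.0 at Smad7 with loops counted once. Leaving out 1 double positive library gave 9.16 to 21.7 over 100 kb at Bmp7, and for upstream partners 20.5 to 31.2 at Smad6, -9.51 to 6.11 at Id3 and -1.26 to 3.32 at Smad7. The causes of these changes were not tested. Depth limits single loops most, since a loop seen in few read pairs can be called for large changes alone.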
